A study of Mus musculus with 13 samples.

Results

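The naive pluripotency genes Klf4, Klf5, Klf2, Tfcp2l1, Tbx3, Esrrb, Nr0b1, Zfp42, Prdm14 and Dppa3 were followed across 13 mouse RNA sequencing libraries. They were taken as the rows of a table of reads per gene whose Ensembl identifiers map to these symbols in the GRCm38 annotation, and all 10 were found among 38377 identifiers. All cells were female. Extraembryonic endoderm stem cells (XEN), grown in DMEM with fetal bovine serum, were wild type (2 libraries), carried a deletion of the Xist allele on the paternal X chromosome (3 libraries), or had either genotype and were exposed to 5-aza-2'-deoxycytidine (Aza) at 20 uM (2 libraries of each). Epiblast stem cells (EpiSC), kept on matrigel in knockout DMEM with FGF2 and Activin, were wild type (2 libraries) or heterozygous for an Xist deletion (2 libraries). Both deletions are written dXist here. The series asks what the loss of Xist, the RNA that silences an X chromosome in female cells, changes in the 2 cell types, and what Aza adds in XEN cells. Neither the duration of the treatment nor the origin of the libraries of a group from separate clones or cultures is stated. The p-values therefore reflect the spread among libraries, which may be technical.

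Naive pluripotency is the state of the pre-implantation epiblast and of mouse embryonic stem cells. It is held by a network of transcription factors fed by LIF through STAT3, which turns on Klf4 and Tfcp2l1, and by release of the repressor TCF7L1 when GSK3 is blocked, which raises Esrrb, Klf2 and Tfcp2l1. EpiSC represent the later, primed epiblast, in which core factors such as Oct4 and Sox2 stay on while most of the naive network is off. XEN cells derive from the primitive endoderm, a lineage of the blastocyst that uses several of the same factors. Aza traps DNA methyltransferases and so lowers DNA methylation when cells divide.

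Library totals ran from 5848454 to 35247432 counts, and levels are given as CPM, the counts scaled to a common library size by TMM over all 13 libraries. Mitochondrial rRNA and Rn7sk, which lack long poly(A) tails, took 10.4% to 13.5% of counts in library 2 of each EpiSC genotype and in the 2 libraries of treated wild-type XEN, and 0.0152% to 0.279% in the other 9. The former 4 are termed total-like, the latter 9 polyA-like. Xist stood at 1560 to 1701 CPM in wild-type and 1.21 to 5.02 CPM in dXist XEN, and at 197 to 835 against 0.261 to 0.448 CPM in EpiSC. Treated wild-type XEN held 1185 to 1614 CPM of Xist, and the libraries labelled treated dXist XEN held 13.3 and 233 CPM, so library 2 of that group stood well above the untreated dXist libraries. The labelled cell types carried their markers. The 9 extraembryonic endoderm markers, among them Gata4 and Sox17, summed to 15774 to 65499 CPM in XEN and 147 to 285 CPM in EpiSC, and the 9 primed epiblast markers, among them Fgf5 and Otx2, to 47.6 to 231 CPM in XEN and 651 to 879 CPM in EpiSC. Trophoblast markers, led by the keratins Krt8 and Krt18, summed to 638 to 1496 CPM in XEN and 57.1 to 129 CPM in EpiSC. The list was mixed. By the test described below, 2 of 8 tested were called higher and 2 lower in wild-type EpiSC, beside 16.8% and 14.1% of all genes. In dXist EpiSC 3 were called higher and 4 lower, beside 21.5% and 16.9%. Tfap2c was among those higher in both. A list of 2-cell-like genes, 5 of 6 in the table, reached at most 1.96 CPM in any library.

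The 250 bases upstream of the RefSeq start sites (GRCm38.p6) were available for 6 of the 10 genes, Klf4, Klf2, Tfcp2l1, Nr0b1, Zfp42 and Esrrb. Shown are those of Klf4, Tfcp2l1, Nr0b1 and Esrrb, called between the cell types below, and of Klf2, which no reported fit called. These 5 differ in CpG content, the letters on which DNA methylation and Aza act. Each runs 5′ to 3′ on the strand of the gene, and capitals mark CpG. The Klf4 window lies at chr4:55532476-55532725 (minus strand), that of Klf2 at chr8:72318812-72319061 (plus), Tfcp2l1 at chr1:118627695-118627944 (plus), Nr0b1 at chrX:86191525-86191774 (plus) and the first start of Esrrb at chr12:86360867-86361116 (plus).
Klf4: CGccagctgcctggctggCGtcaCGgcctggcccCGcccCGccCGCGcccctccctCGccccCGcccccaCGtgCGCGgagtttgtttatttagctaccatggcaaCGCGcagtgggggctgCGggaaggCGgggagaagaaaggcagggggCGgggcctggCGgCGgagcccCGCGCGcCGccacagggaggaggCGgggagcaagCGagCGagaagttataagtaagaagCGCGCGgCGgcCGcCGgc
Klf2: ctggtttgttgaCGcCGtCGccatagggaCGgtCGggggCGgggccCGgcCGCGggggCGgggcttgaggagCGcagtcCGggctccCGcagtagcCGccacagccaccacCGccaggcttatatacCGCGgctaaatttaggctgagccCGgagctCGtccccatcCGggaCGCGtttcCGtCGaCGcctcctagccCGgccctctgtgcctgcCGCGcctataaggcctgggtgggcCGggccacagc
Tfcp2l1: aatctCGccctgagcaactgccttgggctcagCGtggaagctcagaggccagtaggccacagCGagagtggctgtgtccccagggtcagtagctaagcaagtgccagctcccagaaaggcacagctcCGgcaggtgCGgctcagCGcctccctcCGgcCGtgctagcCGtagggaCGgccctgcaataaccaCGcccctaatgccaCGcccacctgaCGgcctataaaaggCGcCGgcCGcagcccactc
Nr0b1: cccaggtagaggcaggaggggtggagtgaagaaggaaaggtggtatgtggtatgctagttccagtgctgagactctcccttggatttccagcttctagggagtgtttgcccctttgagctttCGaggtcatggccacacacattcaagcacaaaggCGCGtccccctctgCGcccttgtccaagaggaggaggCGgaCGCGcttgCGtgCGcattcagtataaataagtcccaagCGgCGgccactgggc
Esrrb: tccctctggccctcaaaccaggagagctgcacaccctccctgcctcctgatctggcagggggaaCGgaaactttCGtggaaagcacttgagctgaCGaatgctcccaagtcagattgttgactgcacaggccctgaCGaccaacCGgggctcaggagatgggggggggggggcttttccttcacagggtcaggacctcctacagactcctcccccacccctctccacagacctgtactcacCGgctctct

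The Klf4 window held 32 CpG and that of Klf2 29, against a median of 6 and quartiles of 2 and 16 over 27025 promoter windows of the same length. Of these windows, 95.6% held fewer than Klf4 and 93.6% fewer than Klf2. Tfcp2l1 held 16 CpG (74.4% of windows held fewer), Nr0b1 11 (64.0%), Zfp42 9 (59.3%), and Esrrb 6 at its first start (49.5%) and 3 at its second (29.6%). The GC box GGGCGG, read on both strands, was present in 32.9% of all windows and occurred 4 times in Klf4, 2 times in Klf2 and 2 times in Zfp42. The KLF4-type letters GGGNGTGG (15.8% of windows) occurred 2 times in Tfcp2l1 and 1 time in Zfp42, and TATAAA (13%) 1 time each in Tfcp2l1 and Nr0b1. The POU octamer ATTTGCAT (1.61%) occurred 1 time, in Zfp42. AAGGTCA, the ESRRB-type letters (4.05%), and the GATA letters AGATAA (10.3%) were in none of the 7 windows of these 6 genes. A match of letters is a description of the window and not a measured site.

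The naive genes did not move together between the cell types. In wild-type cells Klf4, Klf5, Tfcp2l1 and Tbx3 were high in XEN and 19.1-fold to 297-fold lower in EpiSC, while Esrrb and Nr0b1 were read in EpiSC only and had 0 counts in wild-type XEN. Klf2 and Zfp42 were low in both, and Prdm14 and Dppa3 had at most 2 counts in all 4 wild-type libraries of this comparison. Of 8 genes tested by edgeR's quasi-likelihood test, 2 were called higher and 4 lower in EpiSC at a Benjamini-Hochberg adjusted p under 0.05. Of all 19733 genes tested, 16.8% were called higher and 14.1% lower. The median log2 change was -3.0 over the 8 genes and 0.13 over all genes. In bulk libraries, fewer cells of a type and less RNA per cell cannot be told apart.

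Klf4 (chr4:55527143-55532466, minus strand), a zinc finger factor of the Krüppel-like family and a reprogramming factor, reached 593 and 372 CPM in the wild-type libraries of XEN cells, and 1.68 and 1.57 CPM in those of EpiSC. The groups were far apart. The mean was 297-fold lower in EpiSC (1.63 ± 0.0727 against 483 ± 157 CPM, SD, n = 2 each), a log2 change of -8.16 (SE 0.59, adjusted p = 6.47e-05). Its relative Klf5 (chr14:99298691-99315036, plus), which sustains self-renewal in embryonic stem cells beside Klf2 and Klf4, stood at 416 and 920 CPM in XEN and 51.5 and 18.5 CPM in EpiSC. It was 19.1-fold lower in EpiSC (log2 change -4.19, SE 0.55, adjusted p = 0.000812), with no overlap. Its 2 EpiSC libraries, with a mean of 35.0 ± 23.3 CPM, differed from each other more than those of Klf4.

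Tfcp2l1 (chr1:118627945-118685168, plus), a Grainyhead-like factor downstream of LIF and STAT3, was at 159 and 285 CPM in wild-type XEN and 3.21 and 3.57 CPM in EpiSC. The fall was 65.6-fold (log2 change -5.95, SE 0.71, adjusted p = 0.000484). Tbx3 (chr5:119670669-119684724, plus), a T-box factor known in both embryonic stem cells and endoderm, was at 53.4 and 41.4 CPM in XEN and 0.347 and 0.324 CPM in EpiSC, which is 12 and 7 counts. It was 141-fold lower in EpiSC (log2 change -7.07, SE 0.67, adjusted p = 0.000173). Neither gene overlapped between the cell types. The antisense gene Tbx3os1 overlaps Tbx3, and a small nuclear RNA gene, an rRNA gene and a pseudogene overlap Tfcp2l1. Because no source used here gives the counting strand, reads of such pairs cannot be told apart.

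Esrrb (chr12:86361117-86521628, plus), an orphan nuclear receptor repressed by TCF7L1, had 0 counts in both wild-type XEN libraries and 3.85 and 5.33 CPM (133 and 115 counts) in EpiSC. Against a floor of 3 counts over the XEN group it was at least 90.1-fold higher in EpiSC (adjusted p = 0.00104). Nr0b1 (chrX:86191764-86195947, plus), an orphan receptor and corepressor also known as Dax1, had 0 counts in wild-type XEN and 1.85 and 1.99 CPM in EpiSC. It was at least 37.7-fold higher there (adjusted p = 0.00211). Both genes passed the filter on low counts only through the EpiSC libraries, where they are high, so they had to differ. Their floor in wild-type XEN was 0.0509 CPM. Nr0b1 lies on the X chromosome 17.26 Mb from Xist.

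Klf2 (chr8:72319033-72321656, plus), the third Krüppel-like member, was at 1.01 and 1.81 CPM in wild-type XEN and 0.434 and 0.324 CPM in wild-type EpiSC. The libraries did not overlap, but the log2 change of -1.80 (SE 0.75) had an adjusted p of 0.0931 and was not called. Zfp42 (chr8:43295063-43306980, minus), the zinc finger gene also known as Rex1 and a common reporter of the naive state, was at 0.0674 and 0.239 CPM in XEN and 0.347 and 0.185 CPM in EpiSC. These overlapped (log2 change 0.87, SE 2.08, adjusted p = 0.766). Prdm14 (chr1:13113457-13127163, minus), which restrains DNA methyltransferases and FGF signalling, had 0 counts in all 4 libraries. Dppa3 (chr6:122626410-122630272, plus), also known as Stella and a protector of methylation in the zygote, had 0 counts in XEN and 1 in each EpiSC library. Neither passed the filter.

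**Figure D1:**
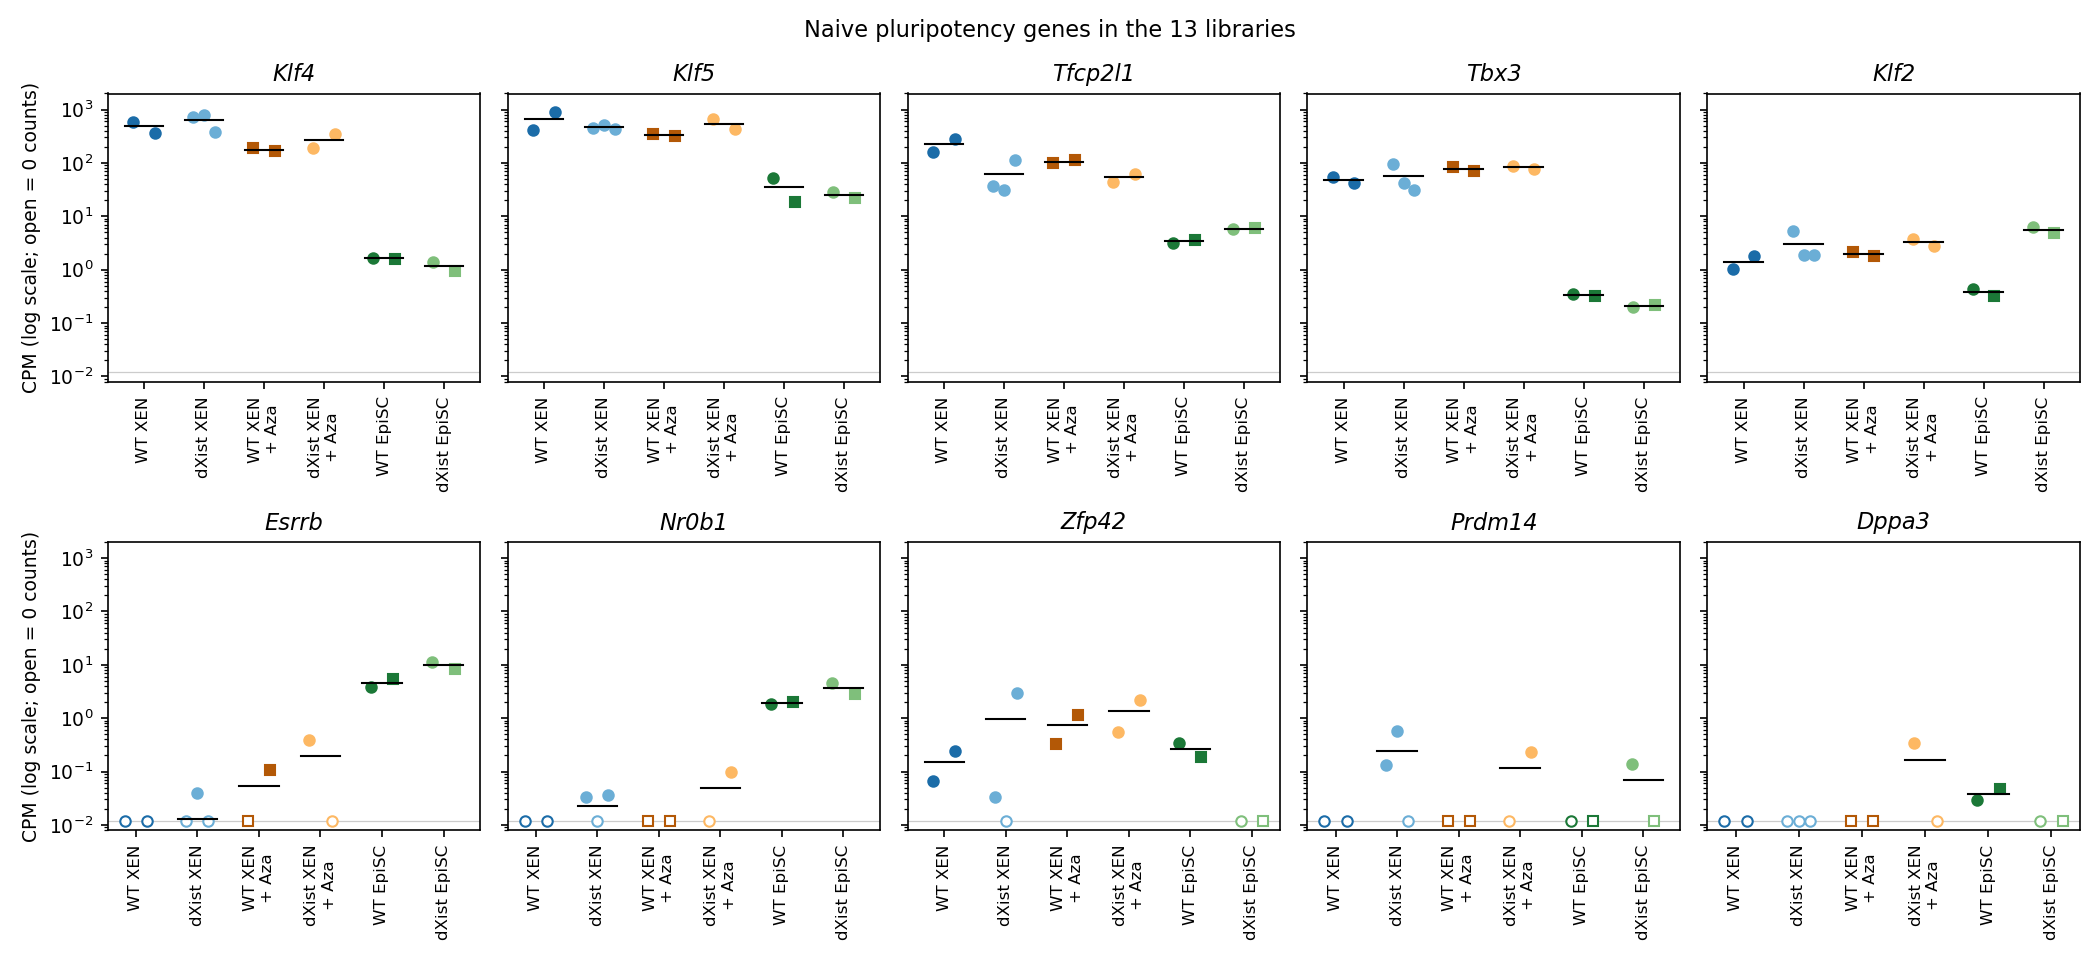
CPM on a log axis for each of the 10 genes in each of the 13 libraries, by group. Circles are polyA-like and squares total-like libraries, bars are group means, and open symbols on the grey line are libraries with 0 counts. Klf4, Klf5, Tfcp2l1 and Tbx3 lie higher in every XEN library than in any EpiSC library, and Esrrb and Nr0b1 lower.

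The dXist cells gave a second set of libraries of both cell types that shares none with the wild-type set. Both comparisons came from 1 fit of the 9 untreated libraries, with 1 filter and a shared estimate of spread, so they are not independent tests. The same 6 genes were called, 2 higher and 4 lower of 8 tested, beside 21.5% of 19733 genes called higher and 16.9% lower. For Esrrb and Nr0b1, which passed the filter only through EpiSC, the repeat was fixed in advance. The median log2 change was -3.68 over the 8 genes and 0.09 over all genes. Klf4 stood at 738, 793 and 380 CPM in the 3 XEN libraries with the deletion and 1.37 and 0.958 CPM in dXist EpiSC, 547-fold lower (log2 change -8.98, SE 0.60, adjusted p = 2.05e-05). Tbx3 was at 96.9, 42.7 and 30.9 CPM against 0.196 and 0.218 CPM, 275-fold lower (log2 change -7.98, SE 0.70, adjusted p = 6.8e-05). Neither gene overlapped between the cell types.

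Klf5 was at 455, 523 and 424 CPM in dXist XEN and 29.1 and 22.0 CPM in dXist EpiSC, 18.3-fold lower (log2 change -4.09, SE 0.53, adjusted p = 0.000561). Tfcp2l1 showed the smallest fold of the 4 genes lower in dXist EpiSC. It was at 37.4, 30.7 and 115 CPM in XEN and 5.80 and 5.97 CPM in EpiSC, 10.4-fold lower (log2 change -3.26, SE 0.60, adjusted p = 0.00313). With polyA-like libraries alone, a setting added after the data had been seen, its adjusted p was 0.0652. That setting leaves 1 library per EpiSC genotype, assumed to vary like the XEN libraries.

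Esrrb had 1 count in the 3 dXist XEN libraries together and 599 in dXist EpiSC (11.3 and 8.49 CPM). The ratio was 855 with an exact 95% counting interval of 153 to 33830 (adjusted p = 0.00026). Nr0b1 had 2 counts against 227 (4.51 and 2.88 CPM in EpiSC), a ratio of 162 with an interval of 44.3 to 1346 (adjusted p = 0.000738). As in the wild type, both passed the filter only through EpiSC. These intervals cover counting error only.

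Klf2 and Zfp42 were again not called. Klf2 was at 5.39, 1.91 and 1.85 CPM in dXist XEN and 6.27 and 4.79 CPM in dXist EpiSC, which overlapped (log2 change 0.96, SE 0.63, adjusted p = 0.242). Zfp42 had 1, 0 and 82 counts in dXist XEN and 0 in both dXist EpiSC libraries, so nearly all its reads came from XEN library 3 (2.92 CPM). The adjusted p was 0.0785, and 0.0467 without dXist XEN library 2, in a range of 0.000413 to 0.392 over 12 other settings. Without dXist XEN library 3 it was too low to be tested. Prdm14 had 4, 15 and 0 counts in dXist XEN and 5 and 0 in dXist EpiSC, and Dppa3 had 0 in all 5 libraries.

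Set against transcript length, the 10 genes had unlike weights in the 2 cell types. Levels between genes are compared as CPM per kilobase of merged exons. Their sum was 318 ± 25.7 in wild-type XEN (SD, n = 2), 316 ± 79.1 in dXist XEN (n = 3), 146 ± 8.55 and 213 ± 5.69 in treated wild-type and dXist XEN (n = 2 each), 9.89 ± 4.35 in wild-type EpiSC and 12.6 ± 2.63 in dXist EpiSC (n = 2 each). Klf4 made up 29.9% to 70.0% of that sum in the XEN libraries and Klf5 24.9% to 60.1%. Tfcp2l1 took 0.874% to 8.98% and Tbx3 1.73% to 8.18%.

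In wild-type XEN the mean per kilobase was 158 for Klf4, 128 for Klf5, 23.5 for Tfcp2l1, 7.15 for Tbx3 and 0.764 for Klf2. In wild-type EpiSC it was 6.73 for Klf5, 1.06 for Nr0b1, 0.758 for Esrrb and 0.533 for Klf4, 0.359 for Tfcp2l1 and 0.205 for Klf2. Klf5 made up 38.6% to 76.4% of the sum in the EpiSC libraries, Nr0b1 7.90% to 17.2% and Esrrb 4.91% to 13%. Klf2 ranged from 1.81% to 24.0% there. The order of the genes thus differed between the cell types, with Esrrb and Nr0b1 above Klf4 per kilobase in EpiSC.

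**Figure D2:**
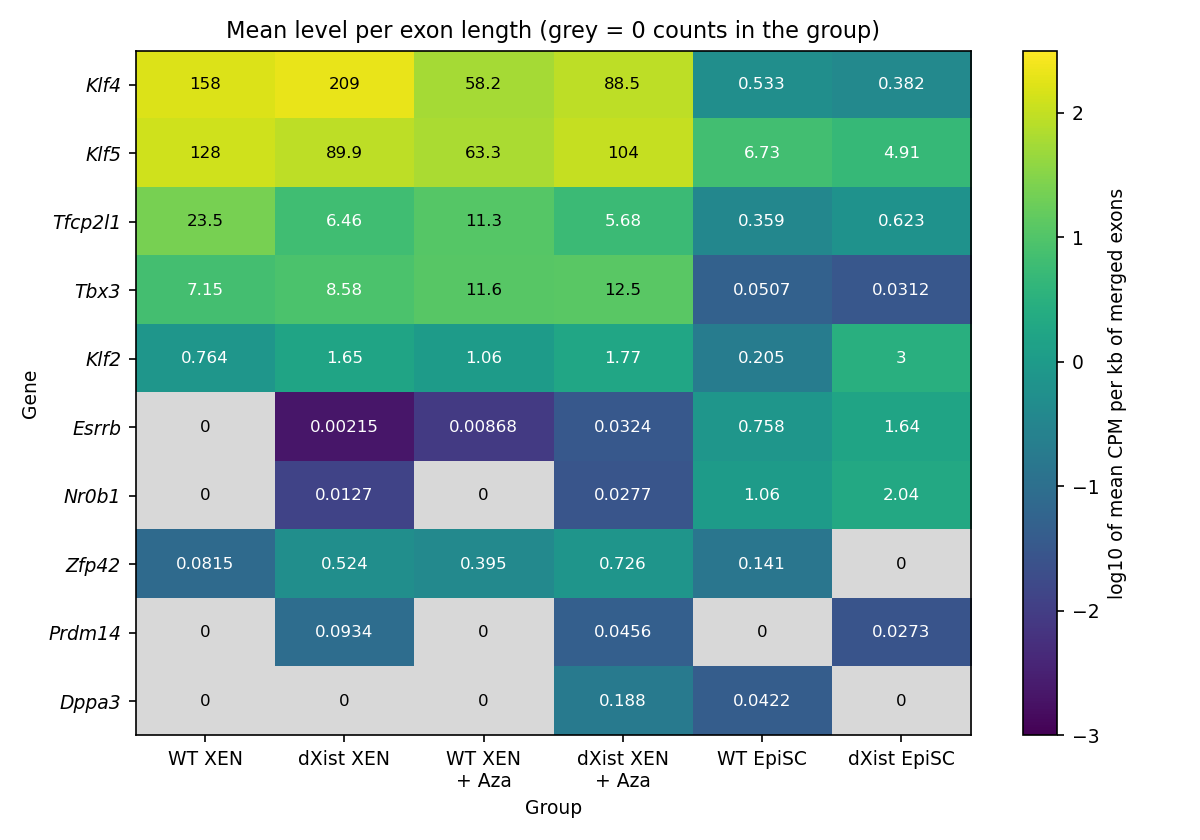
Mean CPM per kilobase of merged exons for each of the 10 genes (rows) in the 6 groups (columns), coloured on a log10 scale with the value printed in each cell and grey for groups with 0 counts. Klf4 and Klf5 lead in the XEN groups, and Klf5 leads in both EpiSC groups.

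In EpiSC, Klf2 was the tested naive gene that differed most between the genotypes. It was at 0.434 and 0.324 CPM in wild-type libraries 1 and 2 (15 and 7 counts) and at 6.27 and 4.79 CPM in dXist libraries 1 and 2 (224 and 110 counts). The dXist mean was 14.6-fold higher (5.53 ± 1.05 against 0.379 ± 0.0775 CPM, SD, n = 2 each), with no overlap. The log2 change was 3.87 (SE 0.43) with an adjusted p of 0.105 by edgeR's quasi-likelihood test, so it was not called. DESeq2 called it (adjusted p = 1.39e-06). Its adjusted p ranged from 4.52e-14 to 0.404 over 11 other settings. It was 0.0486 without wild-type library 2 (log2 change 3.75) and 0.0043 without dXist library 2 (4.01), where a genotype has 1 library that is assumed to vary like those of the other.

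None of the 6 naive genes tested was called in that fit, in which 0% of 17132 genes were called higher and 0% lower. The fit held 1741 genes with an unadjusted p under 0.05, of which 2 were naive genes, Klf2 and Esrrb, and DESeq2 called 492 genes, of which Klf2 was the naive one. The median log2 change was 0.89 over the 6 genes and 0.00 over all genes. Each genotype had 1 polyA-like library (number 1) and 1 total-like library (number 2), and the 2 libraries of a number deviated from their group means together (correlation 0.782 across genes). A fit with library type as a term, which leaves 1 residual degree of freedom and so takes its spread mostly from other genes, called 2 of the 6, both higher, beside 4.91% of genes called higher and 6.53% lower.

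Those 2 were Klf2 (log2 change 3.88, SE 0.47, adjusted p = 4.52e-14) and Esrrb (1.15, SE 0.37, adjusted p = 0.0218). Within the polyA-like pair Klf2 was 14.5-fold higher in dXist, and within the total-like pair 14.8-fold. Esrrb rose from 3.85 to 11.3 CPM in the first pair, 2.94-fold, and from 5.33 to 8.49 CPM in the second, 1.60-fold. Without library type in the fit its log2 change was 1.12 (SE 0.35, adjusted p = 0.394), and the 2 genotypes did not overlap.

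Other naive genes differed less. Nr0b1 was at 1.85 and 1.99 CPM in wild-type and 4.51 and 2.88 CPM in dXist EpiSC, 1.92-fold higher with no overlap (log2 change 0.96, SE 0.41, adjusted p = 0.528, or 0.1 with library type). Tfcp2l1 was at 3.21 and 3.57 against 5.80 and 5.97 CPM (log2 change 0.82, SE 0.32, adjusted p = 0.494, or 0.141). Klf4 had a log2 change of -0.46 (SE 0.47, adjusted p = 0.786). For Nr0b1 and Tfcp2l1 both pairs stood higher in dXist, at 2.44-fold and 1.44-fold and at 1.81-fold and 1.67-fold. Neither passed the threshold in either fit.

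Klf5 went opposite ways in the 2 library types. Among polyA-like libraries the wild type held 51.5 CPM and dXist EpiSC 29.1 CPM, and among total-like libraries they held 18.5 and 22.0 CPM (log2 change -0.41, SE 0.49, adjusted p = 0.818). The low genes were not tested. Zfp42 had 12 and 4 counts in wild-type and 0 in both dXist libraries, at least 5.20-fold lower against the floor. Tbx3 had 12 and 7 counts against 7 and 5, Prdm14 0 and 0 against 5 and 0, and Dppa3 1 and 1 against 0 and 0.

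**Figure D3:**
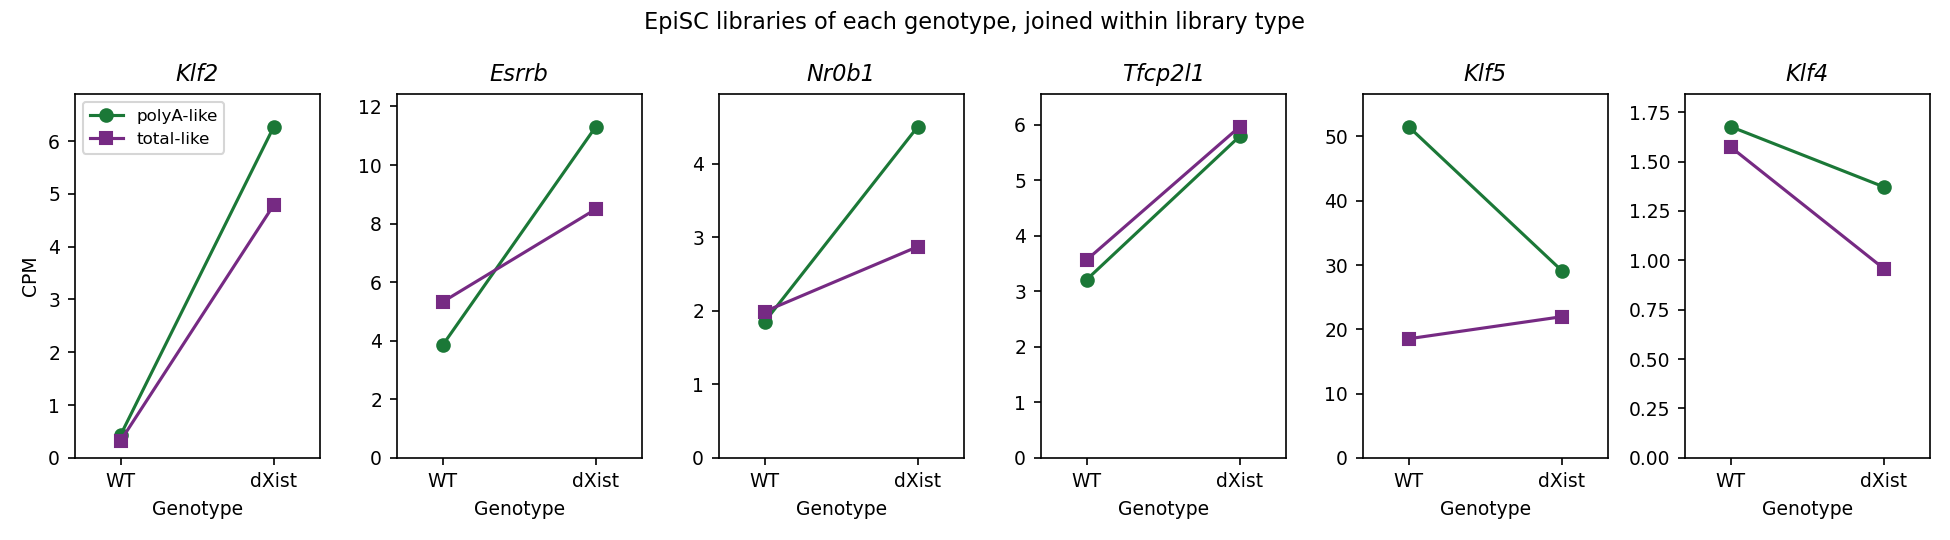
CPM of 6 naive genes in wild-type and dXist EpiSC, with a line joining the polyA-like libraries (circles) and another joining the total-like libraries (squares). Axes start at 0. Klf2, Esrrb, Nr0b1 and Tfcp2l1 lie higher in dXist in both pairs, Klf4 lower in both, and Klf5 lower in the polyA-like and higher in the total-like pair.

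Fibroblast or feeder markers, such as Col1a1 and Col3a1, had a lower sum in dXist than in wild-type EpiSC. All 8 were read in both groups, and their sum was 637 to 798 CPM in the wild type and 151 to 229 CPM in dXist. The fit without library type called 0 of the 8. With library type, 7 were called lower and 0 higher, beside 6.53% and 4.91% of all genes. Primed epiblast markers summed to 659 to 815 CPM and 651 to 879 CPM. In XEN the fibroblast sum was 2.07 to 18.3 CPM. The part of these markers in the naive gene values of either EpiSC comparison was not tested.

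Among the related lists in EpiSC, none of the genes was called in the fit without library type. With it, 3 of 10 tested genes of the naive state that are not among the 10 fell in dXist and none rose, beside 4.91% of all genes called higher and 6.53% lower, the shares to set beside each list here. They were the adhesion gene Jam2 (log2 change -4.32, SE 0.44, adjusted p = 3.49e-20), the secreted phosphoprotein gene Spp1 (-2.97, SE 0.33, adjusted p = 1e-16) and the homeobox gene Gbx2 (-1.60, SE 0.31, adjusted p = 1.19e-05). The LIF receptor gene Lifr (1.01, SE 0.31, adjusted p = 0.0154) and the kinase gene Pim3 (0.93, SE 0.32, adjusted p = 0.0357) rose among 13 genes of the LIF-STAT3 and GSK3-TCF7L1 pathway. Among 10 core pluripotency genes Utf1 and Pou5f1 rose (1.05 and 1.14). Of 12 other Krüppel-like genes 3 rose, among them Klf8 (1.45) and Klf15 (1.96), and 2 fell, among them Klf10 (-0.95).

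In XEN cells the Xist deletion was accompanied by a lower level of Tfcp2l1 that did not pass the test. Wild-type libraries 1 and 2 held 159 and 285 CPM and dXist libraries 1, 2 and 3 held 37.4, 30.7 and 115 CPM. The highest dXist library stood below the lowest wild-type one. The mean was 3.64-fold lower in dXist (61.0 ± 46.8, n = 3, against 222 ± 89.1 CPM, n = 2). On the log2 scale it fell short of the threshold at -1.86 (SE 0.55, adjusted p = 0.344 by edgeR). Without dXist library 3 the log2 change was -2.72 and the adjusted p 0.0181, and DESeq2 on all libraries gave 0.0484, in a range of 0.00141 to 0.792 over 12 other settings.

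None of the 6 naive genes tested in XEN was called between the genotypes, beside 0% of 18393 genes called higher and 0.0217% lower. Tfcp2l1 was the naive gene with an unadjusted p under 0.05, as were 1973 genes in all, and DESeq2 called 497 genes, Tfcp2l1 among them. The median log2 change was 0.31 over the 6 genes and 0.00 over all genes. Klf4 (log2 change 0.38, SE 0.43), Klf5 (-0.52, SE 0.38) and Tbx3 (0.24, SE 0.45) overlapped between genotypes, with adjusted p of 0.785, 0.651 and 0.885.

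Klf2 was at 1.01 and 1.81 CPM in wild-type and 5.39, 1.91 and 1.85 CPM in dXist XEN. All 3 dXist libraries lay above both wild-type ones, by little for 2 of them (log2 change 1.1, SE 0.71, adjusted p = 0.601). Zfp42 was spread widely in dXist, from 0 to 2.92 CPM (log2 change 2.66, SE 1.93, adjusted p = 0.642), and without dXist library 3 the log2 change was -2.78 (adjusted p = 0.33). Prdm14 had 0 counts in wild-type XEN and 4, 15 and 0 in dXist XEN, at least 4.70-fold higher against the floor over the group, and did not pass the filter. Esrrb and Nr0b1 had 1 and 2 counts in all 5 libraries together, which is at or under the floor.

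Whether the genotypes differ more in one cell type than in the other was tested as an interaction in the 9 untreated libraries. It called 0 of 8 naive genes, beside 0.00507% of 19733 genes higher in EpiSC and 0.00507% lower. Unadjusted p under 0.05 held for 2 of the 8, Tfcp2l1 and Klf2, and for 2041 genes in all, and DESeq2 called 426 genes and no naive one. Tfcp2l1 had an interaction of 2.69 on the log2 scale (SE 0.79, adjusted p = 0.328), since it was lower in dXist XEN and higher in dXist EpiSC than in the wild type. For Klf2 it was 2.76 (SE 0.98, adjusted p = 0.414), and for Zfp42 -8.64 (SE 3.80, adjusted p = 0.481). Without dXist XEN library 3 the adjusted p of Tfcp2l1 was 0.00883, in a range of 0.00059 to 0.882 over 17 other settings.

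**Figure D4:**
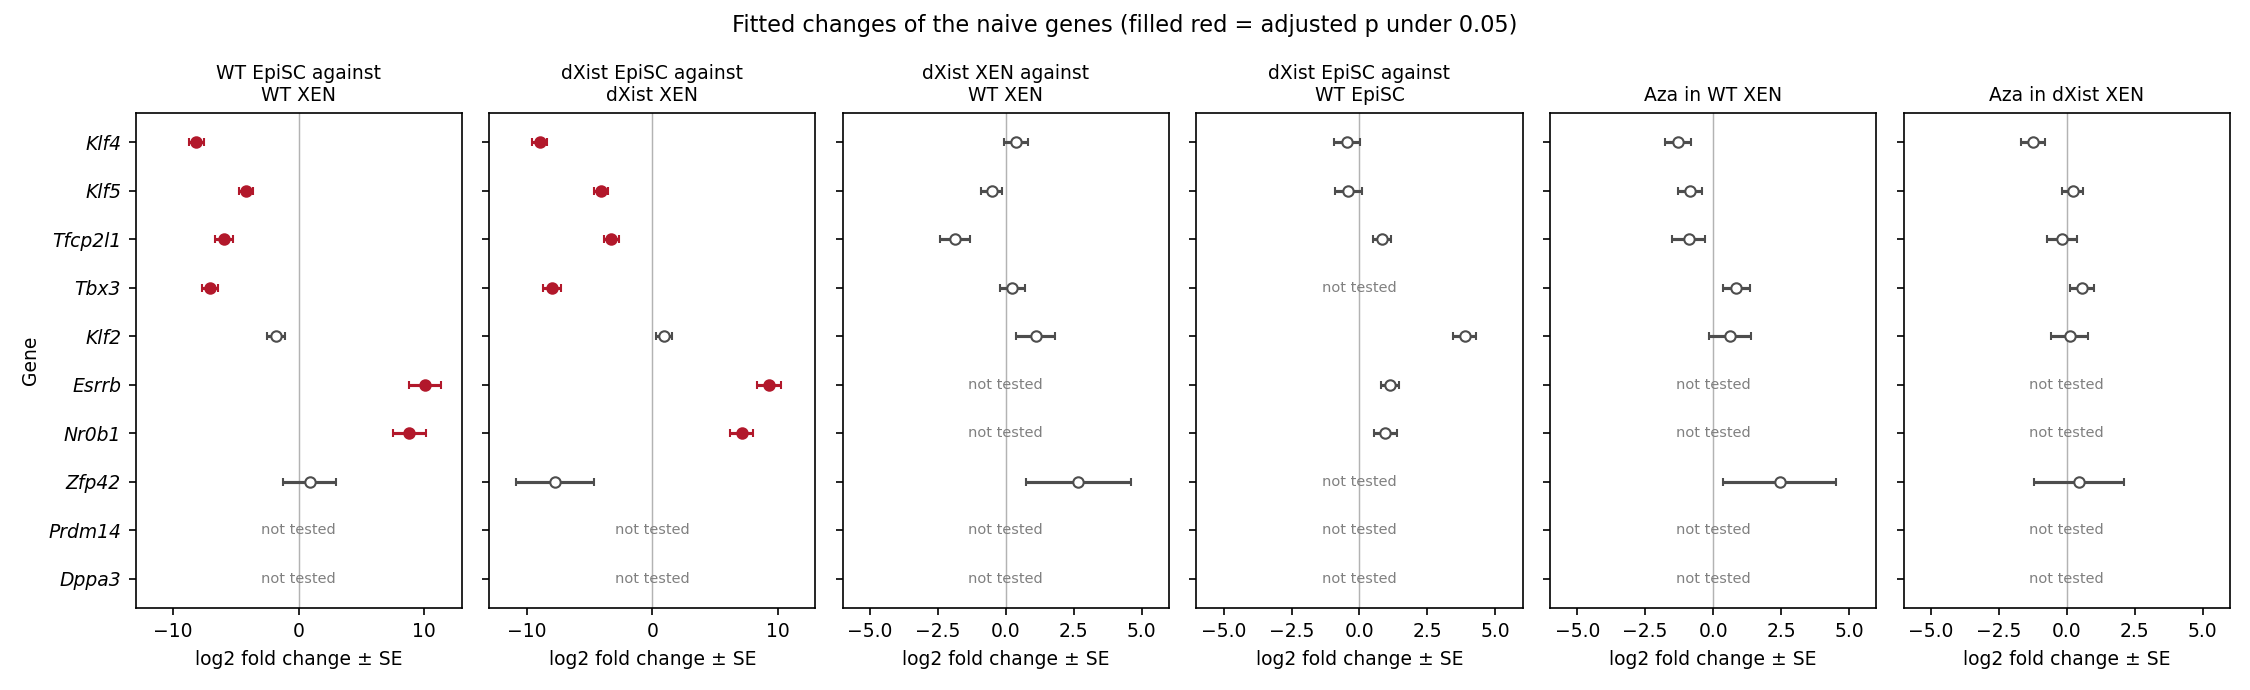
Fitted log2 fold changes with standard errors for the 10 genes in 6 comparisons. The first 2 panels span a wider axis than the other 4. Filled red points passed an adjusted p of 0.05, which 6 genes did in each comparison of cell types and none did in the comparisons of genotype or treatment.

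Aza treatment of XEN cells left the naive genes without a call in either genotype. Klf4 was the only naive gene with an unadjusted p under 0.05. It fell short of the threshold in both, with 189 and 166 CPM in treated and 593 and 372 CPM in untreated wild-type XEN, and 191 and 349 CPM in treated and 738, 793 and 380 CPM in untreated dXist XEN. Treated and untreated libraries did not overlap in either genotype. The means were 2.72-fold lower in the wild type (log2 change -1.29, SE 0.48, adjusted p = 0.323) and 2.36-fold lower in dXist (-1.23, SE 0.45, adjusted p = 0.128). Without treated dXist library 2, which also held the most Xist of its group, the dXist change was -1.77 and its adjusted p 0.0426, in a range of 0.0426 to 0.417 over 12 other settings. That value rests on 1 treated library, assumed to vary like those of the other groups.

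In the wild type 0 of 6 naive genes were called, beside 0.549% of 18393 genes higher and 0.0326% lower, with 2279 genes at an unadjusted p under 0.05. DESeq2 called 646 genes and no naive one. Both treated wild-type libraries were total-like and both untreated ones polyA-like, so the effect of Aza and that of library type cannot be told apart there. In dXist, where all 5 libraries were polyA-like, 0 of 6 were called beside 0.0707% higher and 0.00544% lower. There 4921 genes had an unadjusted p under 0.05, and DESeq2 called 2852 genes and no naive one. Median log2 changes over the 6 genes were -0.11 in the wild type and 0.16 in dXist, and -0.04 and -0.02 over all genes.

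Klf5 was at 341 and 317 CPM in treated and 416 and 920 CPM in untreated wild-type XEN (log2 change -0.85, SE 0.43, adjusted p = 0.46), and at 654 and 426 CPM in treated and 455, 523 and 424 CPM in untreated dXist XEN (0.21, SE 0.38, adjusted p = 0.743). Only the wild-type groups were apart. Tfcp2l1 was at 100 and 112 CPM in treated wild-type XEN (-0.90, SE 0.61, adjusted p = 0.591) and at 44.1 and 63.2 CPM in treated dXist XEN (-0.19, SE 0.56, adjusted p = 0.851). Tbx3 reached 82.3 and 71.7 CPM in treated wild-type and 88.6 and 76.7 CPM in treated dXist libraries (0.86, SE 0.49, adjusted p = 0.519, and 0.56, SE 0.44, adjusted p = 0.436). Klf2 stood at 2.14 and 1.78 CPM and at 3.80 and 2.74 CPM, and treated and untreated libraries overlapped in both genotypes.

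The naive genes that were near 0 in XEN stayed low after Aza. Zfp42 was at 0.330 and 1.15 CPM (2 and 11 counts) in treated wild-type XEN, above both untreated libraries (2 and 7 counts). The log2 change was 2.45 (SE 2.09, adjusted p = 0.679). The 2 counts in treated library 1 lie under its floor of 3 counts, which is 0.495 CPM. In treated dXist XEN Zfp42 was at 0.559 and 2.17 CPM, within the untreated range. It passed the filter on low counts in XEN only with the treated libraries included. Treated wild-type XEN held 0 and 1 counts of Esrrb and none of Nr0b1, Prdm14 or Dppa3, for which the floor of the group was 0.192 CPM. Treated dXist library 1 held 7 counts of Esrrb and 6 of Dppa3, and library 2 held 3 of Nr0b1 and 7 of Prdm14. Dppa3 was at least 4.69-fold higher in treated than in untreated dXist XEN against a floor of 3 counts over the untreated group, on the reads of 1 library, and whether those reads could also come from the annotated pseudogene Dppa3-ps was not tested.

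Germ cell markers, a list of 7 with Dazl and Ddx4, had a higher sum in the treated libraries, without a call for any of them. They summed to 0.0356 to 1.56 CPM in untreated XEN, 3.79 to 4.09 CPM in treated wild-type XEN and 7.05 to 19.2 CPM in treated dXist XEN. Of the 7, 4 were tested and 0 were called in either genotype. Only 1 exceeded 1 CPM in treated wild-type XEN and 2 in treated dXist XEN. In the wild type the treated libraries were total-like and the untreated ones polyA-like. Extraembryonic endoderm markers summed to 40552 to 65499 CPM in untreated and 15774 to 40901 CPM in treated XEN. Their part in the naive gene values was not tested. The interaction of treatment and genotype called 0 of 6 naive genes, beside 0.00544% of genes higher and 0.239% lower. No naive gene and 1472 genes in all had an unadjusted p under 0.05, and DESeq2 called 215 genes and no naive one.

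Within each gene, neighbouring groups often could not be separated. For Klf4 the order was dXist XEN, wild-type XEN, treated dXist XEN, treated wild-type XEN, wild-type EpiSC and dXist EpiSC, and only the first 2 groups overlapped. Klf5 ran from wild-type XEN through treated dXist, untreated dXist and treated wild-type XEN to the EpiSC groups, with overlaps among the first 3 and between the EpiSC groups. Tfcp2l1 was highest in wild-type XEN, followed by treated wild-type, dXist and treated dXist XEN, which overlapped in sequence, and by dXist and wild-type EpiSC. The 4 XEN groups of Tbx3 overlapped from each to the next. For Klf2 the order began with dXist EpiSC and ended with wild-type EpiSC. The 4 XEN groups in between overlapped from each to the next, but wild-type and dXist XEN did not overlap.

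The other genes of the naive network did not follow the 10 as a block between cell types. In wild-type EpiSC against XEN, 6 of 12 other genes of the naive state were called higher and 1 lower, beside 16.8% and 14.1% of all genes tested. Their median log2 change was 1.0, against 0.13 over all genes. The F-box gene Fbxo15 was at 1.52 ± 0.310 CPM in EpiSC and 60.1 ± 3.20 CPM in XEN (log2 change -5.24, SE 0.53, adjusted p = 0.000225). The homeobox gene Nanog was at 32.2 ± 4.76 against 0.527 ± 0.221 CPM (5.99, SE 0.63, adjusted p = 0.000264) while Spp1 was at 49.8 ± 10.7 CPM in EpiSC and had 1 count in XEN. Core pluripotency genes were mostly higher in EpiSC, 7 of 10 tested, and 1 was lower, Sall4 (log2 change -1.49). The EGF-CFC gene Tdgf1 was at 626 ± 161 CPM in EpiSC and 0.0854 ± 0.121 CPM in XEN, Sox2 at 69.1 ± 26.8 and 0.0506 ± 0.0715 CPM, and Utf1 at 60.7 ± 6.36 and 0.137 ± 0.145 CPM. All 3, like Spp1 and the growth factor gene Fgf4 among the naive-state genes, passed the filter on low counts only through EpiSC, where they are high, so they had to differ and the counts and medians of these lists are descriptions. The median log2 change of the core genes tested was 4.92.

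Of 13 genes of the LIF-STAT3 and GSK3-TCF7L1 pathway, 0 were called higher and 5 were called lower in wild-type EpiSC, Lifr, Lif, Stat3, Pim3 and Socs3. Of all genes tested, 16.8% were called higher and 14.1% lower. Lifr, which encodes the receptor of LIF, was at 16.6 ± 0.722 CPM in EpiSC and 698 ± 90.9 CPM in XEN (log2 change -5.34, SE 0.50, adjusted p = 0.000154). The ligand gene Lif was at 10.02 ± 1.41 against 64.0 ± 12.1 CPM (-2.60, SE 0.29, adjusted p = 0.000384), and Stat3 at 62.0 ± 8.61 against 303 ± 23.5 CPM (-2.21, SE 0.32, adjusted p = 0.00117). The median log2 change of the 13 genes was -0.65, against 0.13 over all genes. In dXist cells 0 were called higher and 5 lower, beside 21.5% and 16.9% of all genes, with Lif (-3.26), Lifr (-3.82) and Stat3 (-1.51) first.

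Of 13 Krüppel-like genes that are not members, 4 were called higher and 3 lower in wild-type EpiSC, beside 16.8% and 14.1% of all genes tested. Their median log2 change was -0.65, against 0.13 over all genes. Of those called higher, Klf12, Klf14 and Klf15 passed the filter only through EpiSC. Klf13 was at 42.6 ± 7.90 against 233 ± 70.2 CPM (log2 change -2.37, SE 0.37, adjusted p = 0.00193), Klf16 at 15.2 ± 5.86 against 44.7 ± 5.23 CPM (-1.48, SE 0.37, adjusted p = 0.0156), and Klf15 was read in EpiSC (0.593 ± 0.471 CPM) and had 0 counts in XEN. In dXist cells 4 were called higher and 4 lower, beside 21.5% and 16.9% of all genes, with Klf12 (log2 change 6.88) and Klf3 (-2.18) first, and Klf15 at 117 counts in EpiSC and 2 in XEN. In XEN, neither genotype nor treatment of dXist gave a call in any of these lists. Aza in the wild type gave 1, the repressor gene Tcf7l1 (32.3 ± 7.24 CPM treated against 155 ± 55.9 CPM untreated, log2 change -2.09, SE 0.37, adjusted p = 0.0449), where treatment cannot be told apart from library type. Tcf7l1 was also lower in the total-like library of each EpiSC genotype, at 29.6 against 166 CPM and 28.8 against 81.7 CPM.

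The genes whose levels followed each naive gene most closely were found by Pearson r of log2(CPM + 0.5) over the 13 libraries, among 11194 genes. These libraries share cell type and library type, so r mostly repeats the contrast of XEN and EpiSC. The closest were Hs3st1 and Foxa2 for Klf4 (both 0.994), Epas1 (0.983) and Prkaa2 (0.982) for Klf5, Stra6 (0.986) and Tedc2 (0.985) for Tfcp2l1, and Eva1a (0.993) and Clu (0.991) for Tbx3. For the genes higher in EpiSC they were Brinp2 (0.997) and Slit3 (0.995) for Esrrb, and Sox3 (0.999) and the pseudogene Tdgf1-ps1 (0.997) for Nr0b1. Klf2 and Zfp42 had no partner as close. Those of Klf2 were the X-linked noncoding gene Jpx (0.827) and Washc3 (0.777), and those of Zfp42 the interferon-induced genes Oas1a (0.902) and Isg15 (0.888).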

How the data were processed

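The deposited table holds whole-number counts of reads per gene, which the authors did not normalise. Per the submitters' processing notes the tools were featureCounts 2.0.1, STAR 2.7.9a and FastQC, with the build GRCm38, also written mm10. No source used here states the annotation release, the counting strand or how multi-mapped reads were treated. Libraries came from Trizol RNA with TruSeq stranded or NEBNext Ultra kits per the labels, which do not assign kits to libraries. All columns were mapped by title. GENCODE vM21 (GRCm38) named 38240 of 38377 identifiers.

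Counts were fitted in R 4.3.3 with edgeR 4.0.16 (TMM, filterByExpr, robust quasi-likelihood F test, adjusted over all genes tested, called under 0.05) over 9 untreated, 9 XEN and 4 EpiSC libraries. SE is the absolute log2 change over the square root of F. DESeq2 1.42.0 was an alternative. The procedure was tested on simulated data. None of the 8 pairs of libraries within a group was identical or within sampling noise. Chi-square per gene was 3.89 for the 2 treated wild-type XEN libraries, by far the closest pair, and 75.5 to 524 for the other pairs. A fold against 0 counts uses a floor of 3 counts over the group, and intervals are exact 95% counting intervals.

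Members and lists were chosen with earlier results of these data known. Named genes were all 10 members, up to 3 called genes per list and comparison with the smallest adjusted p and no overlap, and the 2 genes most like each member above 1 CPM in a group. Other genes named for completing a short count were chosen after their values were seen. Other settings were another scaling (RLE), no filter on low counts, protein-coding genes alone, the replicate number as a term, 1 fit of all 13 libraries with and without library type, and each library left out. PolyA-like libraries alone were added after the data had been seen. Replicate numbers coincide with library type in EpiSC. In XEN, same-numbered libraries had correlations of deviations of -0.138 to 0.101, and the labels do not tie a number to a shared culture or day. The titles give treated dXist XEN libraries the numbers of untreated libraries 1 and 2, and untreated library 3 has no treated counterpart. Whether a shared number means a shared line is not stated, and the correlations cannot settle it.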

Additional observations from a re-analysis of the deposited data

How the results depend on the processing

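Over 706 combinations of a naive gene, a comparison and another setting, 653 kept their direction and side of the threshold, 20 passed it anew, 1 lost it and 32 changed direction. In wild-type EpiSC against XEN the same 6 genes were called in all 12 other settings. In dXist cells 5 of the 6 were called in all 13, and Tfcp2l1 in 12. Esrrb and Nr0b1 are among the 6 in both genotypes. In the reported fit they passed the filter on low counts only through EpiSC and had to differ, so their calls carry no weight. Among the other comparisons, with no naive gene called in the reported fit, the count was 2 without the filter (Zfp42 and Tfcp2l1), 1 with the replicate block and 0 to 1 with a library left out for genotype by cell type. It was 1 without the filter, 1 by DESeq2, 1 with the replicate block and 0 to 1 with a library left out for dXist in XEN (Tfcp2l1), and 1 without the filter and 0 to 1 with a library left out for Aza in dXist (Klf4). For dXist in EpiSC it was 1 without the filter, by DESeq2 and with protein-coding genes alone, 2 with the replicate block, and 0 to 1 with a library left out. The causes were not tested. Where a group of 2 loses a library, or polyA-like libraries alone leave 1 in each EpiSC group, the lone library is assumed to vary like the others. Whether XEN numbers pair libraries is not stated, so calls gained or lost there with the replicate block say nothing of effect size. In EpiSC the block is library type.

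Each of the 32 changes of direction had an adjusted p of at least 0.231. With the replicate block the log2 change was -2.52 for Zfp42 in dXist XEN, -0.08 for Klf2 and 0.63 for Tfcp2l1 under Aza in dXist, and 3.17 for Zfp42 and -0.2 for Klf4 in treatment by genotype. By DESeq2 Esrrb had 0.07 in genotype by cell type, with polyA-like libraries alone Klf5 had -0.26 there, and in 1 fit of all libraries with library type Tbx3 had 0.05 in treatment by genotype. With each library left out in turn, values ran in genotype by cell type from -1.25 to 1.12 (Esrrb) and -0.56 to 0.93 (Klf5), in dXist XEN from -2.78 to 3.76 (Zfp42), -0.97 to 0.16 (Klf5) and -0.37 to 0.52 (Tbx3), and in dXist EpiSC from -0.93 to 0.42 (Klf5). Under Aza in dXist they ran from -0.86 to 5.91 (Zfp42), -0.16 to 0.79 (Klf2), -0.15 to 0.45 (Klf5) and -0.51 to 0.68 (Tfcp2l1), and in treatment by genotype from -3.29 to 3.45 (Zfp42), -0.93 to 0.14 (Klf2), -0.46 to 0.49 (Klf4) and -0.6 to 0.3 (Tbx3).

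Counts over all genes moved more. For cell type in the wild type 6085 genes were called, and 3289 with polyA-like libraries alone or 3045 to 4864 with a library left out. In dXist these were 7568, 2701 and 3412 to 8458. Without the filter, by DESeq2 and with a library left out the counts were 616, 426 and 1 to 670 for genotype by cell type (reported 2), 684, 497 and 1 to 510 for dXist in XEN (4), 747, 646 and 44 to 61 for Aza in the wild type (107), 2750, 2852 and 0 to 4730 for Aza in dXist (14), 337, 215 and 28 to 1605 for treatment by genotype (45), and 676, 492 and 0 to 174 for dXist in EpiSC (0, or 1960 with the replicate block). Depth limits the low genes: 3 counts in 1 library are 0.0840 to 0.495 CPM, so a level of Esrrb, Nr0b1, Prdm14 or Dppa3 under that could not be read in a single library.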

Other observations

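Outside the 10 genes, 7 of 20 tested genes of the other naive-state and core pluripotency lists were higher in every Aza-treated XEN library than in any untreated library of the same genotype, as were 10.1% of all 18393 genes tested. They were Dppa2, Dppa4, Dppa5a, Tdh, Tdgf1, Tet2 and Pecam1, and none passed the threshold in either genotype. The first 4 are described here, chosen after their values were seen. Dppa2, Dppa4, Dppa5a, Tdh and Tdgf1 passed the filter on low counts only through the treated libraries, where they are high. They had to differ, so the count of 7 and the adjusted p given here are descriptions. Dppa2, which encodes a DNA-binding protein of early embryos, had 2 counts in untreated wild-type XEN and 17 after treatment (1.19 ± 0.646 CPM, SD, n = 2), and in dXist it went from 0.0689 ± 0.0598 CPM (n = 3) to 4.32 ± 1.21 CPM (n = 2, log2 change 5.85, SE 0.99, adjusted p = 0.0593 by edgeR). Its partner Dppa4 moved in the wild type from 0.187 ± 0.122 to 3.80 ± 0.921 CPM (log2 change 4.47, adjusted p = 0.233) and in dXist from 0.177 ± 0.250 to 6.89 ± 3.01 CPM (5.23, adjusted p = 0.0689). Dppa5a averaged 0.442 ± 0.196 CPM in untreated and 2.89 ± 0.361 CPM in treated wild-type cells, and 0.105 ± 0.0572 and 4.19 ± 4.66 CPM in dXist cells (adjusted p = 0.323 and 0.0632). In dXist most of it came from treated library 2, at 7.48 CPM against 0.895 CPM in treated library 1. Library 2 also held the most Xist of its group. The threonine dehydrogenase gene Tdh averaged 0.410 ± 0.532 CPM before and 4.12 ± 0.476 CPM after treatment of the wild type, and 0.203 ± 0.0525 and 3.51 ± 0.336 CPM for dXist (adjusted p = 0.252 and 0.0737). For the wild type, library type and treatment cannot be told apart.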
